A study of Mus musculus with 12 samples.

Results

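The lysosomal genes described here are 50 of the 55401 gene identifiers in the count files of sorted microglia: 9 cysteine cathepsins with legumain, 3 other proteases and the inhibitor cystatin C, 20 hydrolases and activators of glycan and lipid breakdown, 6 membrane proteins, 7 proton pump genes and 3 transcription factors. They were chosen by gene symbol and function, not by level, but with earlier results of these data known, so no test of the set was run. All 50 were found and all passed the filter on low counts. Microglia were sorted as CD45int CD11b+ cells from the brains of male mice 3 days after sham surgery or transient focal cerebral ischemia (tFCI), a stroke model in which the left middle cerebral artery is closed for 60 min and then reopened. WT mice were Cx3cr1 wt/wt: Hdac3 loxp/loxp and miKO mice were Cx3cr1 CreER/wt: Hdac3 loxp/loxp, so both genotypes carried the floxed alleles, and only miKO carried CreER in place of one copy of *Cx3cr1*, a gene that microglia and other myeloid cells use. Tamoxifen, which activates CreER, was injected at the age of 6 to 8 weeks and surgery followed at least a month later. Whether WT mice also received it is not given in the sources used here. Genotype and surgery made the groups WT-Sham, WT-tFCI, miKO-Sham and miKO-tFCI, with 3 libraries each, and each library pooled microglia of 3 to 4 hemispheres. Replicate 1 of every group was labelled batch 1, and replicates 2 and 3 batch 2.

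Lysosomes are acid compartments in which proteins, glycans and lipids taken up by phagocytosis or autophagy are broken down. A proton pump, the V-ATPase, acidifies them, and most of their hydrolases work best at low pH. In microglia they receive dead cells and myelin debris, and the transcription factors TFEB, TFE3 and MITF, held in the cytoplasm by mTORC1 signalling when nutrients are plentiful, bind short E-box elements in the promoters of many lysosomal genes.

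Between 7697864 and 9452222 counts lay on genes per library. *Hdac3* itself was lower in miKO than in WT, with log2FC -0.81 ± 0.16 (SE) in sham and -0.71 ± 0.16 after tFCI (adjusted p = 0.00281 and 0.0127, edgeR's quasi-likelihood test), and it was still counted in every miKO library (20.9 to 36.0 scaled counts per 1000000, CPM). The 10 microglial markers were all counted. Their summed level was 23340 to 30600 CPM in WT-Sham and 20830 to 24260 CPM in miKO-Sham. After tFCI it was 15930 to 17610 CPM in WT and 7535 to 13740 CPM in miKO. This sum includes *Cx3cr1*, of which miKO lacks 1 copy (means of 3862 and 1196 CPM in WT-Sham and miKO-Sham, 1527 and 438 CPM in WT-tFCI and miKO-tFCI). *Fcrls*, *P2ry13* and *Csf1r* had higher means in miKO-Sham than in WT-Sham, and the other markers lower ones. Several libraries stood apart. miKO-tFCI replicate 1 had the lowest microglial sum and the highest sums of monocyte (983 CPM, against 590 and 802 CPM in replicates 2 and 3), dendritic cell (94.2 against 11.9 and 11.7 CPM), endothelial (278 against 113 and 99.4 CPM) and astrocyte (436 against 174 and 181 CPM) markers. WT-tFCI replicate 1, of the same batch, was likewise the highest of its group for monocyte (670 against 408 and 466 CPM), dendritic cell (35.6 against 10.0 and 8.53 CPM), endothelial (169.5 against 60.6 and 60.2 CPM) and astrocyte (225 against 166 and 154 CPM) markers. *Fn1* alone held 358, 137 and 122 CPM of the monocyte sums in miKO-tFCI and 446, 296 and 365 CPM in WT-tFCI. In miKO-tFCI, *F13a1* (71.0, 170 and 323 CPM) was lowest in replicate 1 and *Chil3* (304, 239 and 311 CPM) was not highest there, unlike the other monocyte markers. miKO-Sham replicate 3 had 194 CPM of monocyte markers, against 65.0 and 60.6 CPM in replicates 1 and 2. WT-Sham replicate 1 had 835 CPM of neutrophil markers, against 70.9 and 47.7 CPM in replicates 2 and 3. These markers, 9 in number, summed to 320 to 349 CPM in miKO-Sham, and after tFCI to 156 to 201 CPM in WT and 687 to 925 CPM in miKO. miKO-Sham replicates 1 and 2, labelled as different batches, were the closest pair within a group by chi-square per degree of freedom (2.88, against 42.7 and 46.1 for each with replicate 3) and were kept as 2 libraries. By the correlation of log2 CPM (0.976) they were less close than WT-Sham replicates 2 and 3 (0.981) and WT-tFCI replicates 2 and 3 (0.980). Mitochondrial genes took 1.42%, 0.646% and 0.487% of the counts on genes in WT-Sham and 1.87%, 1.98% and 0.559% in miKO-Sham, and after tFCI 3.40%, 2.16% and 1.87% in WT and 4.67%, 1.95% and 1.36% in miKO, so that WT-tFCI lay above WT-Sham in every library. The part of these differences in the results below was not tested.

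To ask how much of the microglial transcriptome was lysosomal in each group, the counts on the 50 genes were summed. Their share of all counts on genes was 8.12%, 7.33% and 7.11% in WT-Sham, 9.72%, 9.68% and 10.3% in miKO-Sham, 7.596%, 8.522% and 8.331% in WT-tFCI, and 6.95%, 9.87% and 10.4% in miKO-tFCI. The miKO-Sham libraries all lay above both WT groups, whereas miKO-tFCI replicate 1 lay below every other library. A single secreted protein weighs on this sum, because *Cst3* (cystatin C) had the highest level per length of the set (33370 transcripts per 1000000, TPM, averaged over the 12 libraries), ahead of *Ctss* (14340 TPM), *Ctsd* (12320 TPM), *Ctsz* (7471 TPM) and *Ctsb* (4694 TPM). Without *Cst3* the share was 4.02% to 4.56% in WT-Sham, 7.94% to 8.20% in miKO-Sham, 6.29% to 7.33% in WT-tFCI and 6.32% to 9.91% in miKO-tFCI. On that measure WT-Sham was the lowest group and did not overlap with any other, and miKO-Sham lay above WT-tFCI in every library.

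**Figure D1:**
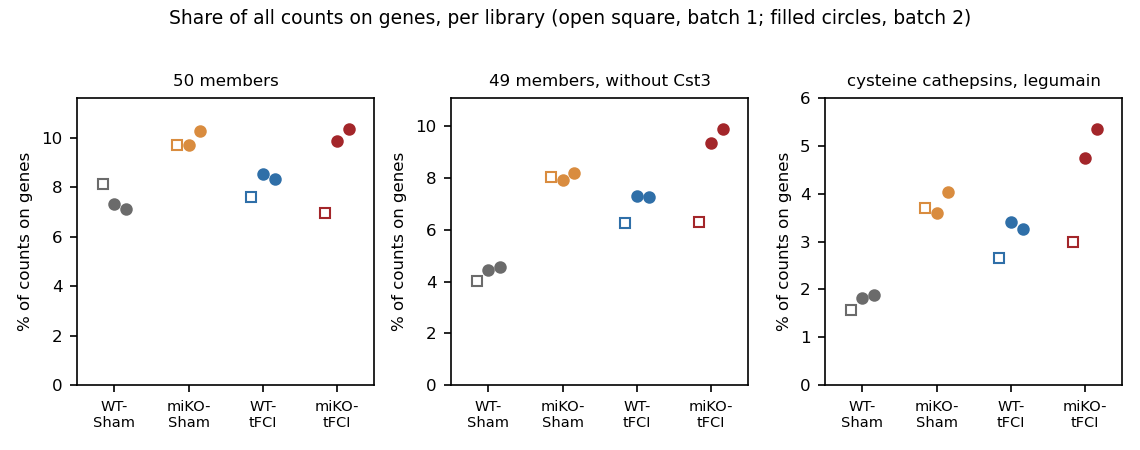
Share of all counts on genes (%) taken by the 50 lysosomal genes, by the 49 without *Cst3*, and by the 9 cysteine cathepsins and legumain, in each of the 12 libraries (open squares, batch 1; filled circles, batch 2). Without *Cst3*, WT-Sham libraries lie at 4.02% to 4.56% and all other libraries at 6.29% or above, and the batch 1 library of miKO-tFCI (6.32%) lies apart from the other two (9.35% and 9.91%).

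Gene by gene, most of the set rose in each of 2 comparisons. In miKO-Sham vs. WT-Sham, 26 of the 50 genes rose and 2 fell at a Benjamini-Hochberg adjusted p under 0.05 over the 16451 genes tested (edgeR's quasi-likelihood test with batch as a term), where 9.94% of all genes rose and 8.12% fell. Their median log2FC was 0.56, against 0.04 over all genes. In WT-tFCI vs. WT-Sham, 26 rose and 6 fell, where 23.5% of all genes rose and 15.4% fell, with a median of 0.54 against 0.02. Of those 6, 3 were also past the study's fold threshold (absolute log2FC above 0.58), as 11.7% of all genes were in that direction. Both comparisons use the same WT-Sham libraries. These are bulk libraries, so fewer cells of one kind and less RNA per cell cannot be told apart.

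Between the genotypes after tFCI fewer of the genes passed. In miKO-tFCI vs. WT-tFCI, 10 genes rose and 5 fell, where 4.50% of all genes rose and 5.40% fell, with a median of 0.12 against 0.04 over all genes. Within batch 1 that median was -0.13, and within batch 2 it was 0.25. Single libraries moved these counts. The number that rose was 16 without miKO-tFCI replicate 1, 4 and 6 without replicates 2 and 3, and 5, 3 and 2 without WT-tFCI replicates 1, 2 and 3. The number that fell was 2 without WT-tFCI replicate 2 or 3 and 3 without miKO-tFCI replicate 2 or 3. In miKO-tFCI vs. miKO-Sham, 13 genes rose (8 without miKO-tFCI replicate 3) and 11 fell, where 24.5% and 17.7% of all genes did, and the median was 0.02. The 26 genes that rose in miKO-Sham vs. WT-Sham were 16 without WT-Sham replicate 2, and 26 rose when miKO-Sham replicates 1 and 2 were summed into a single library.

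The genotype difference itself differed between sham and tFCI for 7 of the 50 genes, all with a smaller or more negative genotype effect after tFCI (a negative interaction, as in 2.57% of all genes), and for none in the other direction (1.25% of all genes). With DESeq2 the counts were 16 and 0, and at an unadjusted p under 0.05 the second was 1 (*Ctso*). The members' median interaction was -0.43, against -0.02 over all genes, and it was -0.85 in batch 1 and -0.18 in batch 2. The count of 7 was 1 without WT-Sham replicate 2 or 3 or without WT-tFCI replicate 2 or 3, 3 without miKO-Sham replicate 1 or WT-tFCI replicate 1, 4 without miKO-tFCI replicate 2, and 8 without miKO-tFCI replicate 1. It was 4 with the replicate number as a block and 3 without the batch term.

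Each called gene was also tested in 19 to 22 alternative fits with other settings or with a library left out. In WT-tFCI vs. WT-Sham 27 of the 32 called genes passed in every one of them, in miKO-Sham vs. WT-Sham 18 of the 28, and in miKO-tFCI vs. miKO-Sham 16 of the 24. Between the genotypes after tFCI 3 of the 15 did so, namely *Ctsf*, *Cst3* and *Atp6v0d2*, and for the interaction 1 of the 7, *Ctsz*. Beside the left-out libraries given with each gene, the setting that ended most calls between the genotypes was a fit without the batch term. After tFCI it ended those of *Ctsk*, *Ctsl*, *Ctss*, *Gla*, *Gm2a*, *Gusb*, *Lamp1*, *Ppt1*, *Psap* and *Tfe3* (adjusted p from 0.0511 to 0.153), and in sham those of *Atp6ap1*, *Atp6v1b2*, *Ctsc*, *Galc*, *Man2b1* and *Naglu* (from 0.0667 to 0.164). In miKO-tFCI vs. miKO-Sham, a fit on these groups alone ended those of *Arsa*, *Atp6v1b2*, *Ctsb*, *Gaa*, *Glb1*, *Hexa* and *Idua* (from 0.0668 to 0.127). The replicate block ended the calls of *Man2b1* in miKO-Sham vs. WT-Sham (0.0527) and *Gaa* in miKO-tFCI vs. miKO-Sham (0.0523). A fit on batch 2 alone (edgeR's quasi-likelihood test) ended those of *Atp6ap1*, *Ctsc*, *Galc* and *Man2b1* in miKO-Sham vs. WT-Sham (from 0.0560 to 0.100) and *Tfe3* in miKO-tFCI vs. WT-tFCI (0.0606). It also ended those of *Sgsh* in WT-tFCI vs. WT-Sham (0.161) and of *Arsa* and *Idua* in miKO-tFCI vs. miKO-Sham (0.0756 and 0.291).

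**Figure D2:**
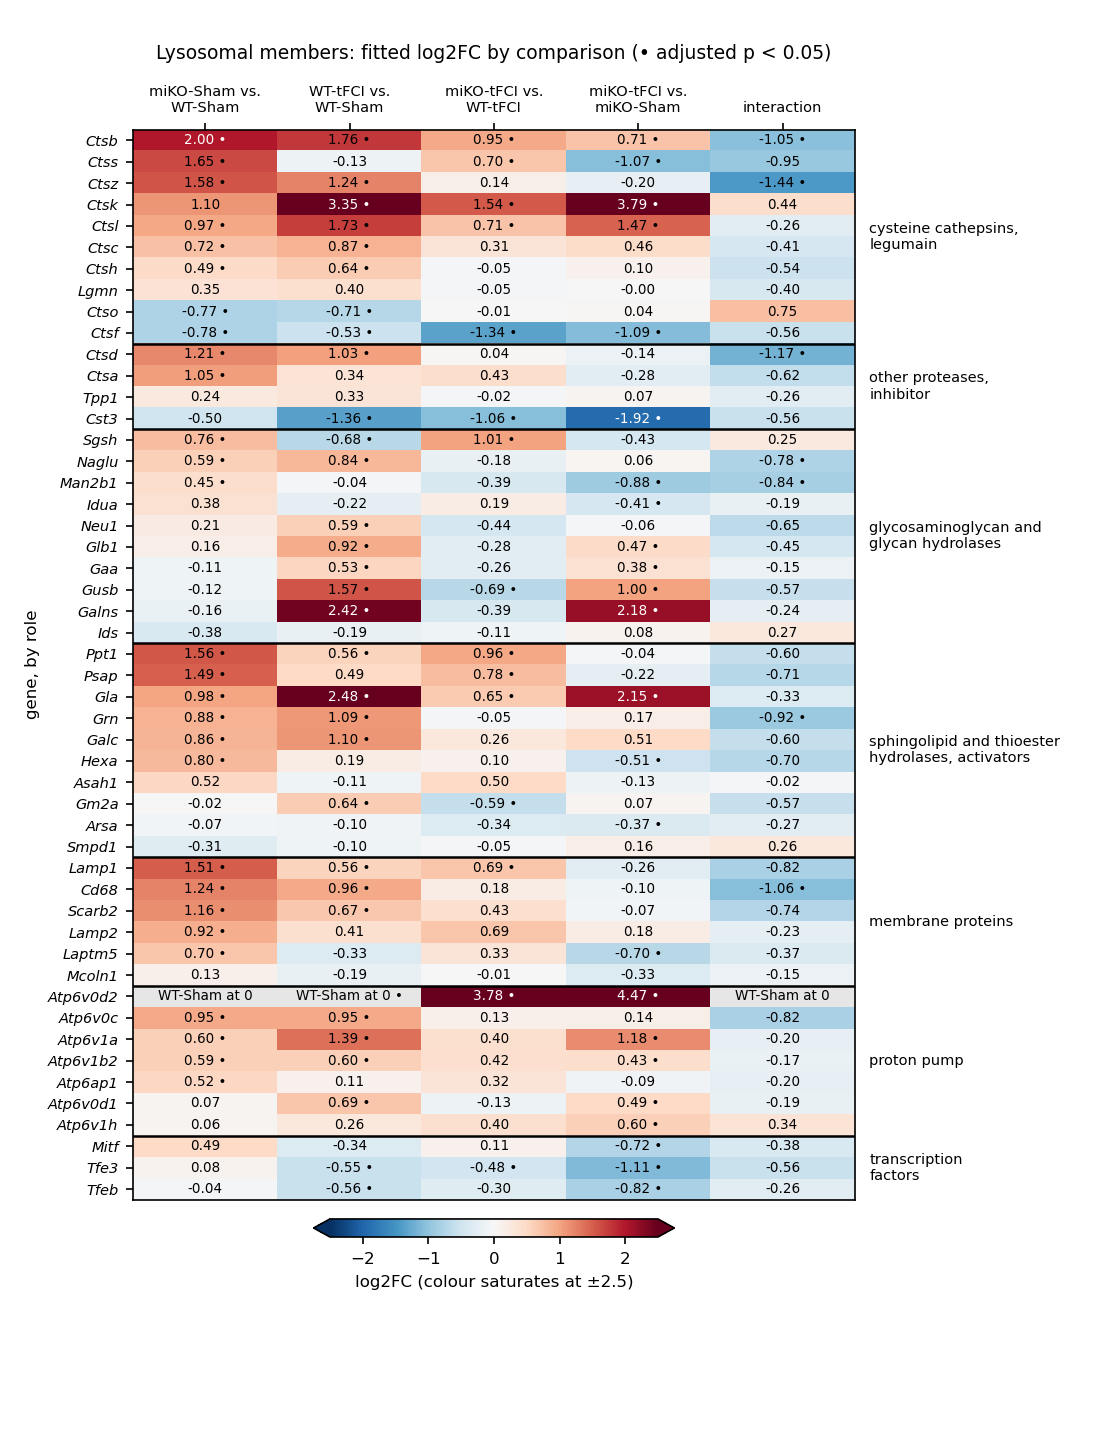
Fitted log2FC of the 50 genes (rows, by role) in the 5 comparisons (columns), with colour from blue (lower) to red (higher) and a dot where the adjusted p of edgeR's quasi-likelihood test was under 0.05. Cells marked "WT-Sham at 0" have no fold because *Atp6v0d2* had no count in WT-Sham. The first 2 columns hold 26 genes each that rose, the third column 10, and the interaction column holds 7 dots, all negative.

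None of the 3 transcription factor genes rose in any comparison (edgeR's quasi-likelihood test, adjusted p). Of all genes, 1.25% (the interaction) to 24.5% (miKO-tFCI vs. miKO-Sham) did. At an unadjusted p under 0.05, *Mitf* alone of the 3 was higher, in miKO-Sham vs. WT-Sham. *Tfeb*, the factor for which the lysosomal programme is best known, was at 80.8, 76.4 and 82.2 CPM in WT-Sham and 83.6, 75.8 and 74.0 CPM in miKO-Sham, and after tFCI at 54.3, 48.1 and 60.1 CPM in WT and 35.0, 49.1 and 48.8 CPM in miKO. The sham groups overlapped and both tFCI groups lay below them. *Tfe3*, which shares the DNA element, was at 182, 224 and 238 CPM in WT-Sham and 232, 220 and 221 CPM in miKO-Sham, and after tFCI at 130, 147 and 163 CPM in WT and 80.0, 116 and 121 CPM in miKO. *Mitf*, the third of this family here, was at 39.9, 31.5 and 32.2 CPM in WT-Sham and 54.7, 50.9 and 40.2 CPM in miKO-Sham, and after tFCI at 31.2, 22.6 and 27.9 CPM in WT and 24.7, 33.6 and 29.4 CPM in miKO. All miKO-tFCI libraries thus lay below all miKO-Sham libraries for each of the 3 genes, and only for *Tfe3* did the miKO-tFCI libraries all lie below the WT-tFCI libraries.

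In WT-tFCI vs. WT-Sham, *Tfeb* fell by 0.56 ± 0.15 (log2FC ± SE, adjusted p = 0.00722) and *Tfe3* fell by 0.55 ± 0.14 (adjusted p = 0.00579, edgeR's quasi-likelihood test), while *Mitf* was at -0.34 ± 0.17 and did not pass. Of all genes 15.4% fell in that comparison. All 3 factors fell in miKO-tFCI vs. miKO-Sham, with log2FC -0.82, -1.11 and -0.72, where 17.7% of all genes fell. None passed in miKO-Sham vs. WT-Sham, where *Tfeb* was at -0.04, *Tfe3* at 0.08 and *Mitf* at 0.49 (adjusted p = 0.0566). *Tfe3* fell in miKO-tFCI vs. WT-tFCI (log2FC -0.48 ± 0.14, adjusted p = 0.0394), a call that was lost without any one of WT-Sham replicate 2, the 3 WT-tFCI libraries or the 3 miKO-tFCI libraries (log2FC from -0.55 to -0.38, adjusted p from 0.0561 to 0.177).

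Since these factors bind E-boxes with the core CACGTG, the promoters of the set were searched for that core on both strands, in RefSeq windows of 250 bases before to 50 bases after each start site (GRCm38.p6). Windows were matched for 43 of the 50 genes, and *Ctsb*, *Ctsh*, *Galns*, *Asah1*, *Atp6v0d2*, *Atp6v1b2* and *Atp6v1h* had no matched window. The core lay in 15 of the 43 (34.9%), where 8.09% of the 27025 symbols in the table have it in any of their windows. Its longer forms contain it, so that TCACGTG was found in 13 of the 43 (30.2%) and in 4.29% of symbols, and TCACGTGA in 6 of the 43 and in 1.13% of symbols. Over single windows the shares were 7.15%, 3.77% and 0.974% of 32851. A match of letters is no measurement of binding. Stretches of 8 promoters with the core upstream of the RefSeq start site are shown next, all of them genes that rose or fell in miKO-Sham vs. WT-Sham. The start sites differ between annotations. By the GENCODE M21 gene coordinates the stretches of *Ctsd*, *Atp6v1a* and *Ctsl* lie inside the gene, and those of *Naglu* and *Sgsh* reach into it. They are read 5′ to 3′ on the gene's strand with up to 32 bases on each side of the core, never past the start site or the window, and the core is in capitals.
*Lamp1*, + strand, chr8:13159068-13159160: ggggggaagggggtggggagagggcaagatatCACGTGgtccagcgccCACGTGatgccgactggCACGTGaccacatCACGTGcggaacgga
*Gla*, − strand, chrX:134601162-134601255: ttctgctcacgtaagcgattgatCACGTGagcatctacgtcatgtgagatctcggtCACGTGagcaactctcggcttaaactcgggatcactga
*Ctsd*, − strand, chr7:142387888-142387957: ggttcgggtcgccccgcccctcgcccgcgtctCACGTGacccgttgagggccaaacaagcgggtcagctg
*Naglu*, + strand, chr11:101069989-101070058: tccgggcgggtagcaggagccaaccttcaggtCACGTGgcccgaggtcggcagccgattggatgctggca
*Sgsh*, − strand, chr11:119355511-119355571: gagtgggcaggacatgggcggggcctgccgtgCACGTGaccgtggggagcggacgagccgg
*Atp6v1a*, − strand, chr16:44139353-44139422: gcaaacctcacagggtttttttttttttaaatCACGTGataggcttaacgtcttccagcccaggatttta
*Ctsl*, − strand, chr13:64370719-64370770: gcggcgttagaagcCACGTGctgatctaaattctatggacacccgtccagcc
*Ctsf*, + strand, chr19:4855054-4855123: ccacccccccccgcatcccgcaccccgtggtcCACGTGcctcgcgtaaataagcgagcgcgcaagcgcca
*Lamp1* held 4 cores within the last 61 bases before its start site, *Gla* held 2, and *Ctsd* held a further one 245 bases before its start site. The 8 genes were shown because they were called in miKO-Sham, where 7 rose and *Ctsf* fell. *Ctsa*, which also rose, has cores on both sides of its start site and is not shown. *Arsa*, *Atp6v0d1*, *Gaa*, *Glb1*, *Lgmn* and *Mcoln1* have the core and were not called there. Of all 15 genes with the core 8 rose and 1 fell in miKO-Sham vs. WT-Sham, and of the 28 without it 15 rose and 1 fell. Of all genes 9.94% rose and 8.12% fell there. In miKO-tFCI vs. miKO-Sham 6 of the 15 rose and 2 fell, and 2 of the 28 rose and 9 fell (24.5% and 17.7% of all genes). In miKO-tFCI vs. WT-tFCI 4 of the 15 rose and 1 fell, and 4 of the 28 rose and 4 fell (4.50% and 5.40%). The difference between genes with and without the core was not tested. In miKO-Sham vs. WT-Sham the median log2FC was 0.59 over the 15 with the core and 0.61 over the 28 without it, and in WT-tFCI vs. WT-Sham it was 0.56 and 0.37.

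The cysteine cathepsins held the 3 largest called increases in miKO-Sham, those of *Ctsb*, *Ctss* and *Ctsz*. Of the 9 cathepsins and legumain, 6 rose and 2 fell against WT-Sham in both miKO-Sham and WT-tFCI. Of all genes 9.94% rose and 8.12% fell in the first, and 23.5% and 15.4% in the second. In miKO-tFCI vs. WT-tFCI 4 rose and 1 fell, where 4.50% and 5.40% of all genes did. In miKO-tFCI vs. miKO-Sham 3 rose and 2 fell, near the shares over all genes (24.5% and 17.7%). *Ctsb*, an endopeptidase and carboxypeptidase abundant in phagocytes, was at 2749, 3285 and 3534 CPM in WT-Sham and 13030, 12460 and 12070 CPM in miKO-Sham, and after tFCI at 9167, 11920 and 11340 CPM in WT and 13170, 22750 and 27800 CPM in miKO. WT-Sham was lowest and miKO-tFCI highest with no overlap, and miKO-Sham lay just above WT-tFCI. The log2FC of *Ctsb* was 2.00 ± 0.20 in miKO-Sham vs. WT-Sham (adjusted p = 7.6e-06, edgeR's quasi-likelihood test), 1.76 ± 0.20 with tFCI in WT, and 0.95 ± 0.20 in miKO-tFCI vs. WT-tFCI (adjusted p = 0.00745, and 0.0505 with log2FC 0.92 without WT-tFCI replicate 3). With tFCI in miKO it rose by 0.71 ± 0.20 (0.50 with adjusted p = 0.0512 without miKO-tFCI replicate 3). Exons of *Ctsb* overlap *Fdft1* on the other strand over 12.8% of their length, and the library kit does not keep strand.

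*Ctss*, a protease that stays active near neutral pH and trims the invariant chain of MHC class II, took a different course. It was at 4863, 4960 and 5170 CPM in WT-Sham and 15990, 15430 and 15380 CPM in miKO-Sham, and after tFCI at 4426, 4851 and 4463 CPM in WT and 5066, 8169 and 9393 CPM in miKO. It was thus highest in miKO-Sham, with the 3 miKO-tFCI libraries between it and WT-tFCI. Surgery left it at a log2FC of -0.13 ± 0.18 in WT (adjusted p = 0.612), and in miKO it fell with tFCI by 1.07 ± 0.18 on the log2 scale (adjusted p = 0.000341, edgeR's quasi-likelihood test). Against WT it was higher by a log2FC of 1.65 ± 0.19 in sham and 0.70 ± 0.18 after tFCI, the second being lost without any one of the WT-tFCI libraries or miKO-tFCI replicate 2 or 3 (log2FC 0.54 to 0.71, adjusted p from 0.0621 to 0.135).

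*Ctsz*, a carboxypeptidase, was at 2057, 2000 and 1935 CPM in WT-Sham and 6102, 5970 and 5834 CPM in miKO-Sham, and after tFCI at 4120, 5250 and 4856 CPM in WT and 3769, 6181 and 5859 CPM in miKO. WT-Sham stood below all other groups, and the tFCI groups of both genotypes overlapped. Its log2FC was 1.58 ± 0.17 in miKO-Sham vs. WT-Sham and 1.24 ± 0.17 in WT-tFCI vs. WT-Sham, but 0.14 ± 0.17 in miKO-tFCI vs. WT-tFCI. The interaction was -1.44 ± 0.24 (adjusted p = 0.00357, edgeR's quasi-likelihood test) and passed in all 21 alternative fits run.

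*Ctsl*, an endopeptidase, rose in all 4 comparisons between groups. It was at 757, 723 and 712 CPM in WT-Sham and 1515, 1486 and 1288 CPM in miKO-Sham, and after tFCI at 2165, 2662 and 2505 CPM in WT and 2475, 4531 and 5192 CPM in miKO. Its log2FC was 1.73 ± 0.21 in WT-tFCI vs. WT-Sham, 1.47 ± 0.21 in miKO-tFCI vs. miKO-Sham, 0.97 ± 0.20 in miKO-Sham vs. WT-Sham and 0.71 ± 0.20 in miKO-tFCI vs. WT-tFCI, where the groups overlapped. That last call was lost without any one of WT-Sham replicate 2 or 3, the WT-tFCI libraries or miKO-tFCI replicate 2 or 3 (log2FC 0.52 to 0.74, adjusted p from 0.0524 to 0.153). Other genes overlap 32.9% of its exon length. *Ctsk*, the collagen-cleaving cathepsin of osteoclasts, was near 0 in WT-Sham at 0.361, 0.560 and 0.410 CPM and in miKO-Sham at 1.11, 0.278 and 1.54 CPM. After tFCI it was at 9.34, 3.92 and 2.32 CPM in WT and 22.5, 11.9 and 9.15 CPM in miKO. All tFCI libraries lay above all sham libraries. *Ctsk* rose with tFCI in WT (log2FC 3.35 ± 0.55) and in miKO (3.79 ± 0.49), and its rise in miKO-tFCI vs. WT-tFCI (1.54 ± 0.41, adjusted p = 0.0278, edgeR's quasi-likelihood test) was lost without WT-tFCI replicate 2 or 3 or miKO-tFCI replicate 1 or 2 (log2FC 1.60, 1.29, 1.42 and 1.47, adjusted p from 0.0714 to 0.144).

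The dipeptidyl peptidase gene *Ctsc* and the aminopeptidase gene *Ctsh* rose in both comparisons with WT-Sham, with log2FC 0.72 and 0.49 in miKO-Sham and 0.87 and 0.64 in WT-tFCI, and neither passed between genotypes after tFCI. In miKO-Sham the call for *Ctsc* was lost without any one of the WT-Sham libraries or miKO-Sham replicate 1 or 3 (log2FC 0.53 to 0.78), and that for *Ctsh* without WT-Sham replicate 2 or 3, miKO-Sham replicate 1 or 3, or WT-tFCI replicate 3 (0.41 to 0.48). *Lgmn*, the asparaginyl endopeptidase that matures other cathepsins, passed in none of the comparisons (2886 to 6120 CPM over all libraries).

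A pair of cathepsins went the other way. *Ctsf* was at 355, 374 and 382 CPM in WT-Sham and 219, 203 and 226 CPM in miKO-Sham, and after tFCI at 237, 266 and 268 CPM in WT and 96.3, 99.4 and 109 CPM in miKO. The groups did not overlap, and the order ran from WT-Sham over WT-tFCI and miKO-Sham to miKO-tFCI. It fell by 0.78 ± 0.12 in miKO-Sham vs. WT-Sham, by 0.53 ± 0.12 with tFCI in WT, and by 1.34 ± 0.12 in miKO-tFCI vs. WT-tFCI on the log2 scale (adjusted p = 0.000259, 0.00249 and 1.12e-05, edgeR's quasi-likelihood test). *Ctso* was at 74.2, 115 and 132 CPM in WT-Sham and 58.2, 51.2 and 75.6 CPM in miKO-Sham, and after tFCI at 61.6, 71.9 and 58.0 CPM in WT and 50.6, 62.8 and 78.9 CPM in miKO. It fell by 0.77 ± 0.18 in miKO-Sham and by 0.71 ± 0.18 in WT-tFCI against WT-Sham, with log2FC -0.01 ± 0.18 between the genotypes after tFCI.

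The inhibitor of these proteases fell in 3 of the 4 comparisons between groups. *Cst3* was at 39180, 25980 and 23230 CPM in WT-Sham and 19290, 20180 and 21580 CPM in miKO-Sham, and after tFCI at 12810, 11380 and 9914 CPM in WT and 6137, 5402 and 4782 CPM in miKO. The groups did not overlap. It fell by 1.36 ± 0.18 in WT-tFCI vs. WT-Sham, by 1.06 ± 0.18 in miKO-tFCI vs. WT-tFCI and by 1.92 ± 0.18 in miKO-tFCI vs. miKO-Sham on the log2 scale (adjusted p = 4.67e-05, 0.00203 and 2.39e-06, edgeR's quasi-likelihood test), and in miKO-Sham vs. WT-Sham the log2FC of -0.50 ± 0.18 did not pass (adjusted p = 0.069). The microglial marker sum moved in the same direction as *Cst3*, being lower in the tFCI groups, although *Fcrls* and *Olfml3* had higher means in WT-tFCI than in WT-Sham. The part of cell composition in the fall of *Cst3* was not tested.

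Among the other proteases, *Ctsd*, the main aspartic protease of lysosomes, was at 7628, 5929 and 5942 CPM in WT-Sham and 16240, 16490 and 12340 CPM in miKO-Sham, and after tFCI at 13100, 13770 and 12890 CPM in WT and 11420, 14860 and 14410 CPM in miKO. WT-Sham lay apart below, and the other 3 groups overlapped with each other. Its log2FC was 1.21 ± 0.18 in miKO-Sham vs. WT-Sham, 1.03 ± 0.18 with tFCI in WT, and 0.04 ± 0.18 in miKO-tFCI vs. WT-tFCI. 34.4% of its exon length is shared with a predicted gene on the same strand, so its counts are uncertain. *Ctsa*, the carboxypeptidase that protects sialidase and β-galactosidase, rose in miKO-Sham vs. WT-Sham alone (1.05 ± 0.15), and *Tpp1*, a tripeptidyl peptidase, passed in none.

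**Figure D3:**
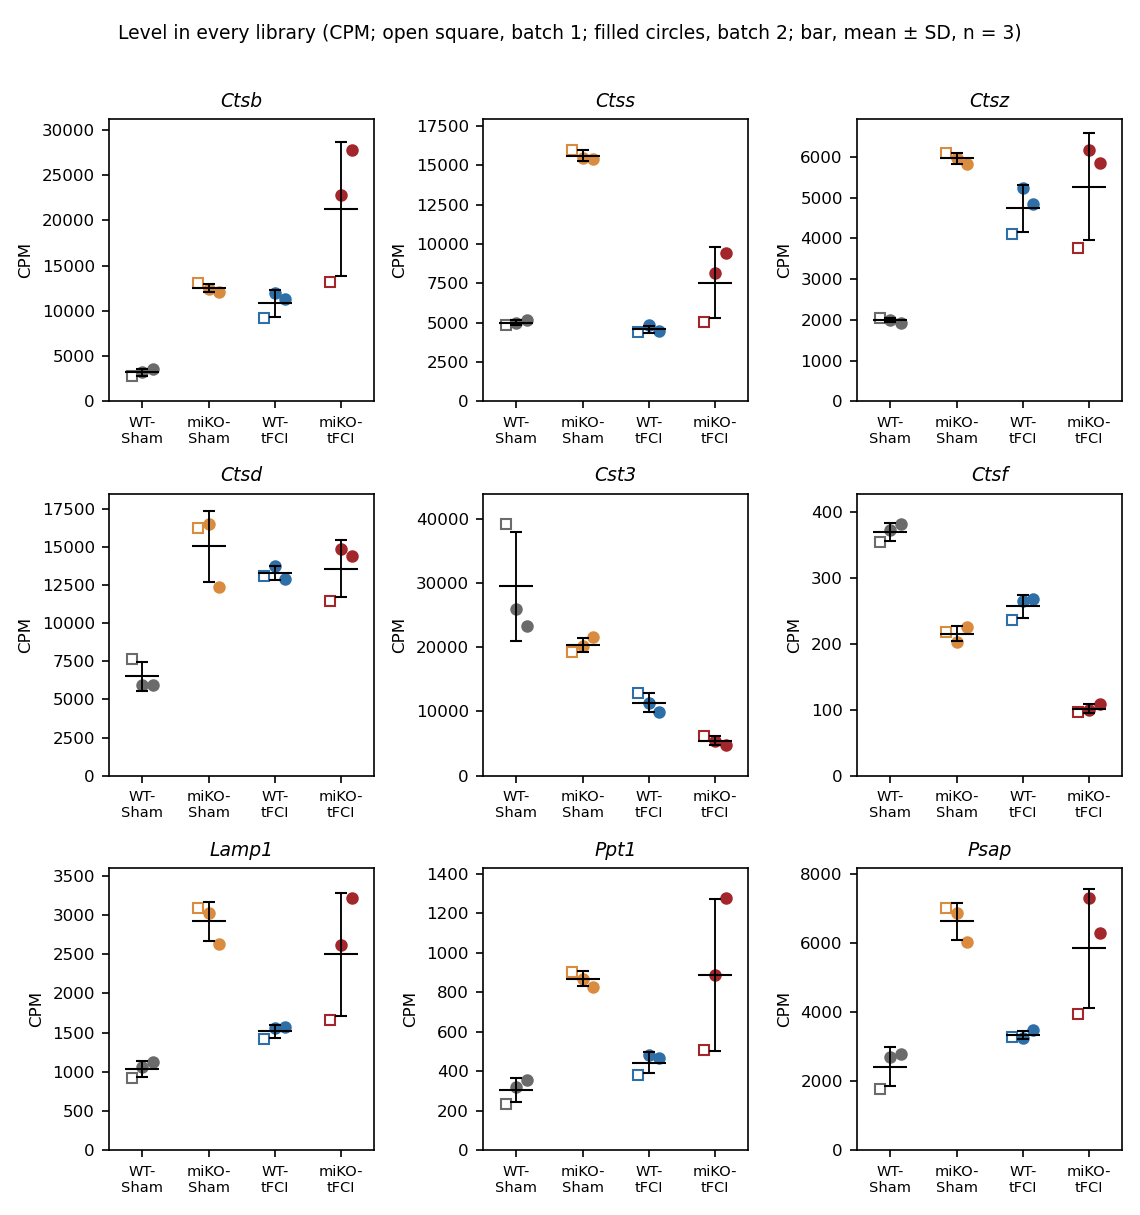
CPM of 9 genes in every library by group (open squares, batch 1; filled circles, batch 2; bars, mean ± SD, n = 3), each axis from 0. *Ctss* is highest in miKO-Sham (15380 to 15990 CPM), and *Cst3* and *Ctsf* are lowest in miKO-tFCI (4782 to 6137 CPM and 96.3 to 109 CPM). The batch 1 library of miKO-tFCI lies below the batch 2 libraries of that group for every gene shown but *Cst3*, for *Ctsf* only just.

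Of the 10 hydrolases of glycosaminoglycans and other glycans, 6 rose and 1 fell in WT-tFCI vs. WT-Sham, where 23.5% and 15.4% of all genes did. Of the same 10 genes, 3 rose and none fell (0 also at an unadjusted p under 0.05) in miKO-Sham vs. WT-Sham (9.94% of all genes rose). In miKO-tFCI vs. WT-tFCI 1 rose and 1 fell (4.50% and 5.40% of all genes), and in miKO-tFCI vs. miKO-Sham 4 rose and 2 fell (24.5% and 17.7% of all genes). *Galns*, the sulfatase of keratan sulfate and chondroitin 6-sulfate, was at 14.9, 11.7 and 14.98 CPM in WT-Sham and 13.1, 14.4 and 9.86 CPM in miKO-Sham. After tFCI it was at 66.8, 75.7 and 80.2 CPM in WT and 44.5, 58.8 and 67.1 CPM in miKO. The sham groups overlapped, the tFCI groups overlapped, and all tFCI libraries lay above all sham libraries. *Galns* rose by a log2FC of 2.42 ± 0.18 in WT and 2.18 ± 0.19 in miKO (adjusted p = 2.04e-07 and 8.53e-07, edgeR's quasi-likelihood test), with -0.39 ± 0.17 between the genotypes after tFCI.

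*Gusb*, the β-glucuronidase, was at 263, 311 and 322 CPM in WT-Sham and 266, 240 and 314 CPM in miKO-Sham, and after tFCI at 749, 973 and 952 CPM in WT and 384, 651 and 649 CPM in miKO. Every miKO-tFCI library lay below every WT-tFCI library and above every sham library. It rose by 1.57 ± 0.16 with tFCI in WT and by 1.00 ± 0.16 in miKO. In miKO-tFCI vs. WT-tFCI it fell by 0.69 ± 0.16 (adjusted p = 0.0126, edgeR's quasi-likelihood test), a call lost without WT-tFCI replicate 2 or 3 (log2FC -0.68 and -0.69, adjusted p = 0.0592 and 0.0582).

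*Sgsh*, the sulfamidase of heparan sulfate, was the 1 glycan hydrolase higher in miKO than in WT both in sham and after tFCI. It was at 28.1, 22.5 and 24.8 CPM in WT-Sham and 46.2, 47.2 and 34.7 CPM in miKO-Sham, and after tFCI at 12.7, 14.5 and 19.98 CPM in WT and 25.4, 41.1 and 28.9 CPM in miKO. WT-tFCI was the lowest group, and the miKO libraries lay above the WT libraries within each surgery. The log2FC was 0.76 ± 0.21 in miKO-Sham vs. WT-Sham (adjusted p = 0.0198, lost without WT-Sham replicate 2 or 3 or miKO-Sham replicate 1 or 2, with log2FC 0.63 to 0.71) and 1.01 ± 0.22 in miKO-tFCI vs. WT-tFCI (adjusted p = 0.00901, edgeR's quasi-likelihood test, and 0.0552 and 0.0632 without WT-tFCI replicates 1 and 2, with log2FC 0.84 and 0.94). With tFCI in WT it fell by 0.68 ± 0.22 (adjusted p = 0.0217), which was lost without WT-Sham replicate 1 or WT-tFCI replicate 1 or 2 (log2FC -0.55, -0.54 and -0.66, adjusted p from 0.0702 to 0.117). 21.6% of its exon length overlaps *Card14* on the other strand.

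Of the others, *Naglu*, the α-N-acetylglucosaminidase of heparan sulfate, rose in miKO-Sham (139.9, 175.6 and 184.9 CPM in WT-Sham, 248.8, 234.9 and 262.7 CPM in miKO-Sham, log2FC 0.59 ± 0.15) and in WT-tFCI (263.4, 310.9 and 315.2 CPM, 0.84 ± 0.15), with 184.1, 305.3 and 306.1 CPM in miKO-tFCI, where the genotypes overlapped. The first of these calls was lost without WT-Sham replicate 2 or miKO-Sham replicate 1 (log2FC 0.56 and 0.44). *Man2b1*, the lysosomal α-mannosidase, was at 651.8, 688.3 and 715.4 CPM in WT-Sham and 954.5, 938.9 and 897.9 CPM in miKO-Sham, and after tFCI at 646.3, 642.3 and 702.0 CPM in WT and 387.7, 581.5 and 560.5 CPM in miKO. It thus lay highest in miKO-Sham and lowest in miKO-tFCI, with log2FC 0.45 ± 0.14 in miKO-Sham vs. WT-Sham and -0.88 ± 0.14 in miKO-tFCI vs. miKO-Sham. The first of these calls was lost without any one of 8 libraries, the WT-Sham and WT-tFCI libraries and miKO-Sham replicates 1 and 2 (0.35 to 0.48). *Glb1* (β-galactosidase, 0.92), *Gaa* (acid α-glucosidase, 0.53) and *Neu1* (sialidase, 0.59) rose in WT-tFCI vs. WT-Sham, and *Glb1* and *Gaa* also rose with tFCI in miKO (0.47 and 0.38). The call for *Glb1* in miKO was lost without miKO-tFCI replicate 3 (0.31), that for *Gaa* in miKO without any one library other than miKO-Sham replicate 1 (0.23 to 0.42), and that for *Gaa* in WT without WT-Sham replicate 1 or WT-tFCI replicate 3 (0.38 to 0.43). Among the iduronate enzymes, *Idua* fell in miKO-tFCI vs. miKO-Sham (-0.41, lost without miKO-Sham replicate 1 or 3 or miKO-tFCI replicate 1 or 2, with -0.45 to -0.22) and *Ids* passed in none of the comparisons.

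Of the 10 lipid hydrolases and their activators, 6 rose in miKO-Sham vs. WT-Sham (9.94% of all genes) and 5 in WT-tFCI vs. WT-Sham (23.5%), with none lower (0 also at an unadjusted p under 0.05). In miKO-tFCI vs. WT-tFCI 3 rose and 1 fell, where 4.50% and 5.40% of all genes did. In miKO-tFCI vs. miKO-Sham 1 rose and 2 fell, where 24.5% and 17.7% of all genes did. *Gla*, the α-galactosidase A of globotriaosylceramide, was at 11.8, 15.7 and 13.8 CPM in WT-Sham and 30.7, 25.7 and 24.0 CPM in miKO-Sham, and after tFCI at 63.9, 86.5 and 80.4 CPM in WT and 86.6, 142 and 136 CPM in miKO. The groups did not overlap, although the lowest miKO-tFCI library was only just above the highest WT-tFCI library. Its log2FC was 2.48 ± 0.18 with tFCI in WT, 2.15 ± 0.18 with tFCI in miKO, 0.98 ± 0.18 in miKO-Sham vs. WT-Sham and 0.65 ± 0.16 in miKO-tFCI vs. WT-tFCI (adjusted p = 1.36e-07, 5.89e-07, 0.00153 and 0.0219, edgeR's quasi-likelihood test). The last was lost without any one of the WT-tFCI libraries or miKO-tFCI replicate 2 or 3 (log2FC 0.56 to 0.70).

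*Ppt1*, the thioesterase that removes palmitate from proteins, was at 235, 318 and 355 CPM in WT-Sham and 905, 869 and 829 CPM in miKO-Sham, and after tFCI at 381, 481 and 465 CPM in WT and 505, 888 and 1276 CPM in miKO. miKO lay above WT within each surgery. The log2FC was 1.56 ± 0.21 in sham and 0.96 ± 0.21 after tFCI (adjusted p = 0.000102 and 0.00962, edgeR's quasi-likelihood test), the second being lost without WT-tFCI replicate 3 (log2FC 0.93, adjusted p = 0.0572). With tFCI in WT it rose by 0.56 ± 0.21, a call lost without any one of the WT-Sham and WT-tFCI libraries or miKO-tFCI replicate 2 (log2FC 0.49 to 0.58). *Psap*, whose product is cut into the saposins that present sphingolipids to their hydrolases, followed a like order, with 1776 to 2781 CPM in WT-Sham and 6020 to 6995 CPM in miKO-Sham, and after tFCI 3253 to 3465 CPM in WT and 3944 to 7287 CPM in miKO. Its log2FC between the genotypes was 1.49 ± 0.20 in sham and 0.78 ± 0.19 after tFCI, the second being lost without WT-tFCI replicate 2 or 3 or miKO-tFCI replicate 2 (log2FC 0.64 to 0.75).

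*Grn*, the precursor of granulins, was at 1965, 2165 and 2133 CPM in WT-Sham and 3876, 3894 and 3674 CPM in miKO-Sham, and after tFCI at 4075, 4340 and 4947 CPM in WT and 2984, 5056 and 5093 CPM in miKO. It rose in both comparisons with WT-Sham (0.88 ± 0.17 and 1.09 ± 0.17) and was at -0.05 ± 0.17 between the genotypes after tFCI. *Gm2a*, the GM2 activator, was at 161.8, 150.9 and 164.9 CPM in WT-Sham and 158.8, 156.4 and 156.1 CPM in miKO-Sham, and after tFCI at 287.8, 229.8 and 231.4 CPM in WT and 235.6, 126.7 and 144.3 CPM in miKO. It rose with tFCI in WT (0.64 ± 0.16, and 0.49 with adjusted p = 0.0508 without WT-Sham replicate 1), and in miKO-tFCI vs. WT-tFCI it fell by 0.59 ± 0.16 (adjusted p = 0.0299, edgeR's quasi-likelihood test), although the tFCI groups overlapped. That call was lost without any one of the WT-tFCI libraries or miKO-tFCI replicate 2 or 3 (log2FC from -0.62 to -0.45, adjusted p from 0.0715 to 0.113).

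Calls differed among the enzymes of myelin lipids. *Galc*, which cleaves galactosylceramide, rose in miKO-Sham (0.86 ± 0.23) and WT-tFCI (1.10 ± 0.23) against WT-Sham, from 15.8 to 29.0 CPM to 34.8 to 41.1 CPM and 36.3 to 52.6 CPM, and the call in miKO-Sham was lost without WT-Sham replicate 1 or 2 or miKO-Sham replicate 1 (0.53 to 0.79). *Arsa*, which cleaves sulfatide, fell in miKO-tFCI vs. miKO-Sham (-0.37 ± 0.12, lost without miKO-Sham replicate 1 or miKO-tFCI replicate 2 or 3, with -0.38 to -0.31) and passed nowhere else. *Hexa*, the hexosaminidase α subunit, rose in miKO-Sham (0.80 ± 0.15) and fell with tFCI in miKO (-0.51 ± 0.15, and -0.45 with adjusted p = 0.0574 without miKO-Sham replicate 1). *Asah1* (acid ceramidase) and *Smpd1* (acid sphingomyelinase) passed in none.

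Of the 6 lysosomal membrane proteins, 5 rose in miKO-Sham vs. WT-Sham (9.94% of all genes) and 3 in WT-tFCI vs. WT-Sham (23.5%). In miKO-tFCI vs. WT-tFCI 1 rose (4.50% of all genes), and in miKO-tFCI vs. miKO-Sham 1 fell, near the share over all genes (17.7%). *Lamp1*, a major glycoprotein of the lysosomal membrane, was at 925, 1055 and 1128 CPM in WT-Sham and 3097, 3034 and 2630 CPM in miKO-Sham, and after tFCI at 1424, 1558 and 1576 CPM in WT and 1666, 2616 and 3215 CPM in miKO. miKO lay above WT within each surgery. Its log2FC was 1.51 ± 0.18 in miKO-Sham vs. WT-Sham, 0.56 ± 0.18 with tFCI in WT, and 0.69 ± 0.18 in miKO-tFCI vs. WT-tFCI (adjusted p = 3.79e-05, 0.0238 and 0.0248, edgeR's quasi-likelihood test). The call with tFCI in WT was lost without any one of the WT-Sham or WT-tFCI libraries (log2FC 0.48 to 0.54), and that after tFCI between the genotypes without any one of the WT-tFCI libraries or miKO-tFCI replicate 2 or 3 (0.51 to 0.70).

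*Cd68*, the macrosialin of phagocytes, was at 984.1, 864.0 and 803.5 CPM in WT-Sham and 2190, 2151 and 1917 CPM in miKO-Sham, and after tFCI at 1590, 1839 and 1727 CPM in WT and 1602, 2139 and 2113 CPM in miKO. WT-Sham lay apart below, and the genotypes overlapped after tFCI, with log2FC 1.24 ± 0.15 in sham and 0.18 ± 0.15 after tFCI. *Scarb2*, the carrier of glucocerebrosidase, rose in miKO-Sham (1.16 ± 0.17) and in WT-tFCI (0.67 ± 0.17). *Lamp2* rose in miKO-Sham alone (0.92 ± 0.21), and its log2FC of 0.69 ± 0.21 after tFCI did not pass (adjusted p = 0.0522, edgeR's quasi-likelihood test). *Laptm5*, a lysosomal membrane protein of blood and immune cells, rose in miKO-Sham (0.70 ± 0.17, and 0.64 with adjusted p = 0.0524 without WT-Sham replicate 2) and fell with tFCI in miKO (-0.70 ± 0.17). *Mcoln1*, the calcium channel TRPML1, passed in none.

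Genes of the proton pump rose with tFCI in both genotypes. Of the 7, 5 rose with tFCI in WT (23.5% of all genes) and 5 in miKO (24.5%). In miKO-Sham vs. WT-Sham 4 rose (9.94% of all genes), 1 rose in miKO-tFCI vs. WT-tFCI (4.50%), and none fell in these comparisons (0 also at an unadjusted p under 0.05). The 2 forms of the d subunit behaved differently. *Atp6v0d1*, the form of most tissues, was at 113, 102 and 92.3 CPM in WT-Sham and 105, 113 and 104 CPM in miKO-Sham, and after tFCI at 172, 165 and 159 CPM in WT and 157, 152 and 145 CPM in miKO. It rose with tFCI by a log2FC of 0.69 ± 0.12 in WT and 0.49 ± 0.12 in miKO, and was at 0.07 ± 0.12 and -0.13 ± 0.12 between the genotypes.

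*Atp6v0d2*, the form known from osteoclasts and some macrophages, was at 0 CPM in all WT-Sham libraries, at 0, 0.416 and 0.512 CPM in miKO-Sham, at 0.838, 0.346 and 0.366 CPM in WT-tFCI and at 7.12, 6.03 and 8.65 CPM in miKO-tFCI. It was thus counted above 1 CPM in miKO-tFCI alone, with every library of that group above all others. The log2FC was 3.78 ± 0.65 in miKO-tFCI vs. WT-tFCI and 4.47 ± 0.70 in miKO-tFCI vs. miKO-Sham (adjusted p = 0.00319 and 0.000277, edgeR's quasi-likelihood test). Against WT-Sham, where a floor of 3 counts over the group was taken in place of 0, the 13 counts in WT-tFCI were at least 4.64-fold higher (adjusted p = 0.0106), and the 7 counts in miKO-Sham did not pass (adjusted p = 0.0586). The border-associated macrophage markers summed to 280, 508 and 540 CPM in miKO-tFCI and 156 to 246 CPM in WT-tFCI, and the monocyte markers to 590 to 983 CPM and 408 to 670 CPM. Each border-associated marker had a higher mean in miKO-tFCI than in WT-tFCI. In miKO-tFCI replicate 1, however, *Pf4* (123 CPM) and *Ms4a7* (88.5 CPM) held most of that sum. There *Mrc1* (17.5 CPM), *Lyve1*, *Cd163*, *Cbr2* and *Siglec1* lay below their WT-tFCI means (46.7 CPM for *Mrc1*). *Fn1* held 369 CPM of the mean monocyte sum of 515 CPM in WT-tFCI, and its mean was lower in miKO-tFCI (206 CPM). Every other monocyte marker had a higher mean in miKO-tFCI than in WT-tFCI, among them *Chil3* (285 against 70.0 CPM) and *F13a1* (188 against 43.4 CPM). The part of such cells in *Atp6v0d2* was not tested.

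Among the other pump genes, *Atp6v1a*, the catalytic subunit, rose in WT-tFCI (65.9 to 71.0 CPM in WT-Sham, 180 to 182 CPM in WT-tFCI, log2FC 1.39 ± 0.16), in miKO-Sham (87.4 to 119 CPM, 0.60 ± 0.16) and with tFCI in miKO (196 to 288 CPM, 1.18 ± 0.16). *Atp6v1b2* rose in the same 3 comparisons (0.60, 0.59 and 0.43), and *Atp6v0c*, which forms the proton-carrying ring, rose in both comparisons with WT-Sham (0.95 in each). In miKO-Sham the call for *Atp6v1a* was lost without WT-Sham replicate 2 or 3 or miKO-Sham replicate 1 (0.46 to 0.60) and that for *Atp6v1b2* without WT-Sham replicate 2 or miKO-Sham replicate 1 (0.52 and 0.48). With tFCI in miKO the call for *Atp6v1b2* was lost without WT-Sham replicate 2 or 3, WT-tFCI replicate 3, miKO-Sham replicate 2 or 3, or miKO-tFCI replicate 3 (0.27 to 0.40). *Atp6ap1*, an accessory subunit, rose in miKO-Sham alone (0.52 ± 0.14, lost without WT-Sham replicate 1 or 2 or miKO-Sham replicate 1, with 0.41 to 0.50), and *Atp6v1h* rose with tFCI in miKO alone (0.60 ± 0.16, and 0.38 with adjusted p = 0.0719 without miKO-tFCI replicate 3).

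**Figure D4:**
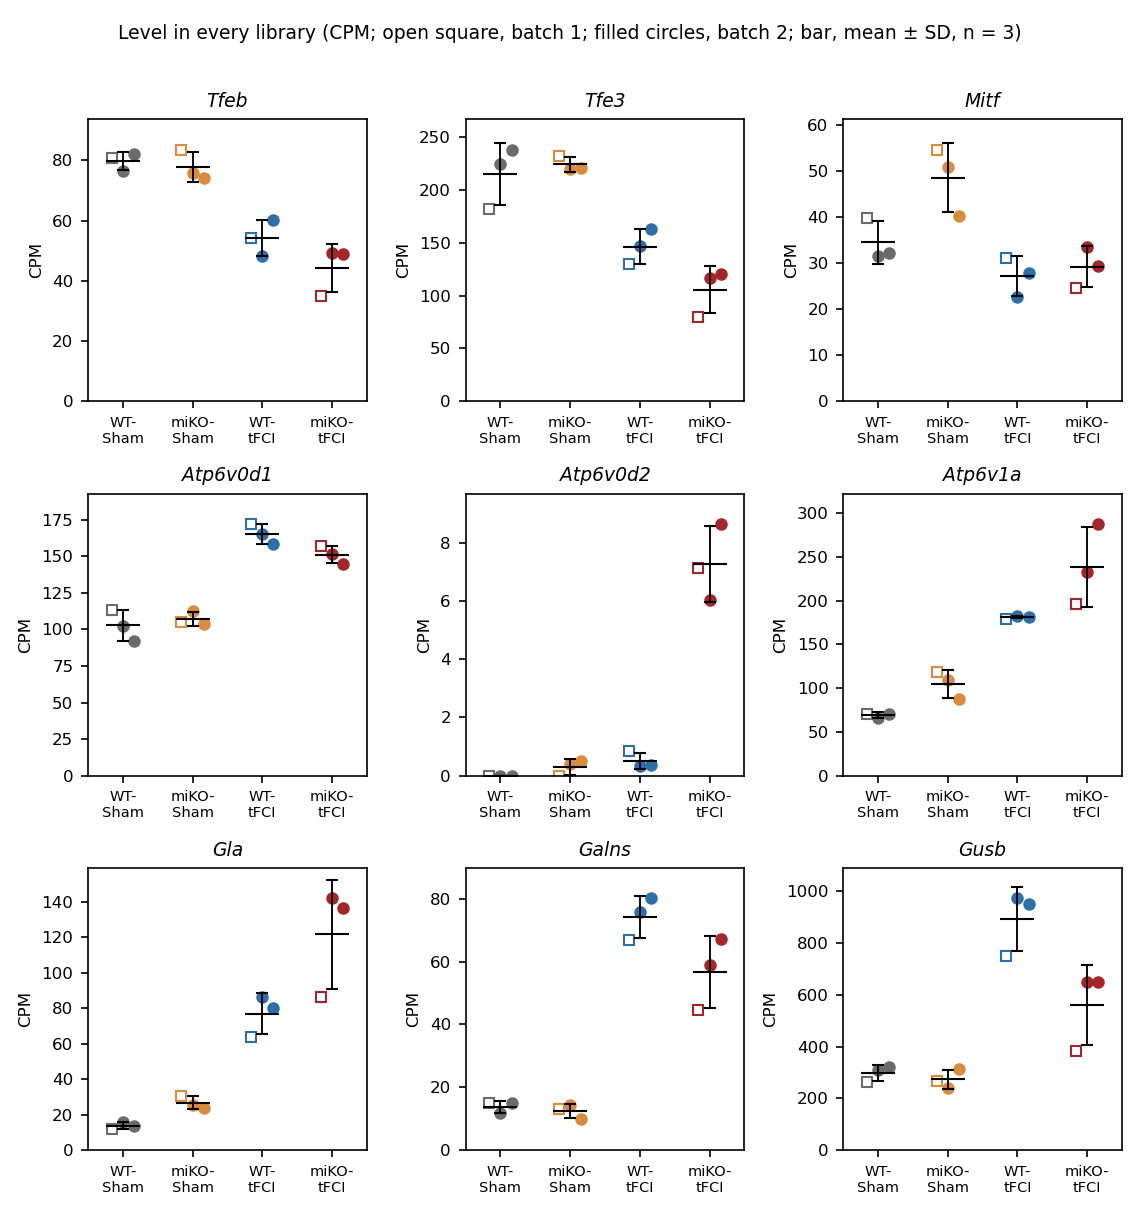
CPM of the 3 transcription factors, 3 proton pump genes and 3 hydrolases in every library by group (open squares, batch 1; filled circles, batch 2; bars, mean ± SD, n = 3), each axis from 0. *Tfeb* and *Tfe3* lie lower in the tFCI groups, *Atp6v0d2* is above 1 CPM only in miKO-tFCI (6.03 to 8.65 CPM), and *Galns* and *Gusb* rise with tFCI to lower levels in miKO than in WT for *Gusb* (384 to 651 against 749 to 973 CPM) and to overlapping levels for *Galns*.

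To ask whether the genotype difference depended on surgery, it was set side by side in sham and after tFCI. These 2 contrasts share no libraries. The 7 genes with a called interaction were *Ctsz* (-1.44 ± 0.24, adjusted p = 0.00357), *Ctsd* (-1.17 ± 0.25, 0.0182), *Cd68* (-1.06 ± 0.22, 0.0133), *Ctsb* (-1.05 ± 0.28, 0.0478), *Grn* (-0.92 ± 0.24, 0.0443), *Man2b1* (-0.84 ± 0.20, 0.0328) and *Naglu* (-0.78 ± 0.21, 0.0493, all by edgeR's quasi-likelihood test). All of them were higher in miKO than in WT in sham, by a log2FC of 0.45 to 2.00. After tFCI *Ctsb* alone of them was still called higher in miKO, and the other 6 were between -0.39 and 0.18. For *Ctsd* and *Cd68* the call was lost without WT-Sham replicate 2 or 3 or WT-tFCI replicate 2 or 3 (adjusted p up to 0.0710 and 0.0605), and for *Man2b1* without these 4, miKO-Sham replicate 1 or WT-tFCI replicate 1 (up to 0.106). For *Grn* it was lost without these 6, miKO-Sham replicate 2 or miKO-tFCI replicate 2 (up to 0.139), for *Ctsb* without the same 8 or WT-Sham replicate 1 (up to 0.136), and for *Naglu* without any one library other than miKO-Sham replicate 2 (up to 0.143). The replicate block ended the calls of *Ctsb*, *Grn* and *Naglu* (0.0615, 0.0578 and 0.0575), and a fit without the batch term those of *Ctsb*, *Grn*, *Man2b1* and *Naglu* (0.189, 0.139, 0.0840 and 0.227). A fit on batch 2 alone ended those of *Man2b1* and *Naglu* (0.0668 and 0.143). Within batch 1 the interaction of the 7 genes ran from -1.72 to -1.14 and within batch 2 from -1.33 to -0.50.

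**Figure D5:**
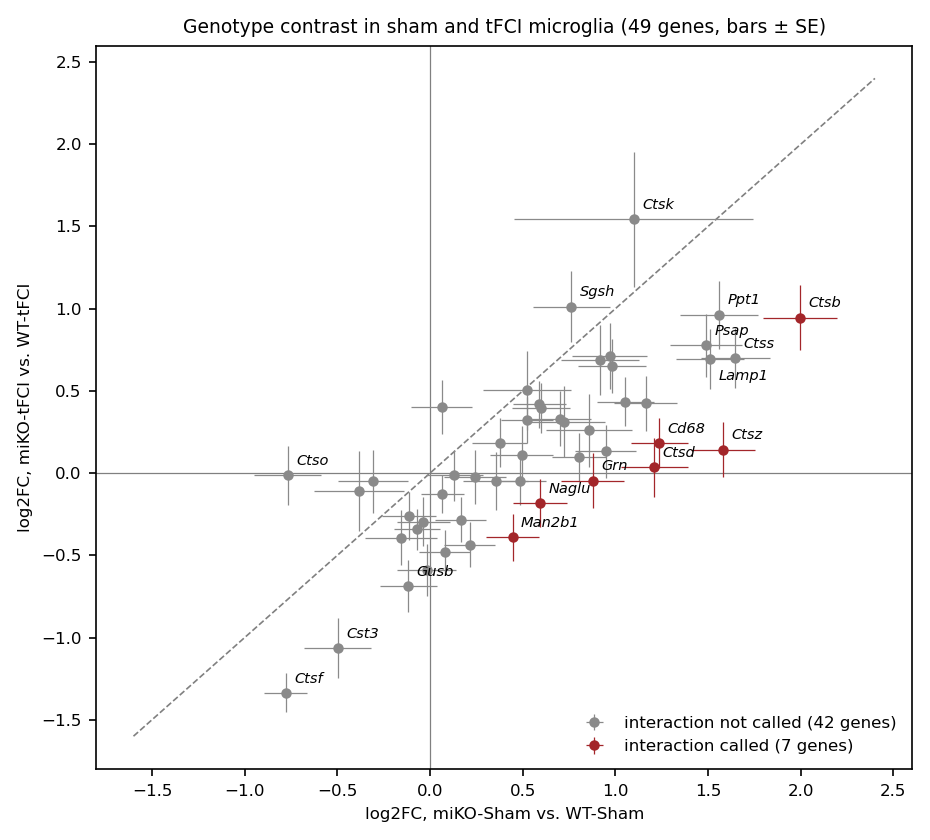
Fitted log2FC of miKO vs. WT in sham (x axis) and after tFCI (y axis) for 49 of the 50 genes, with bars of ± SE and a dashed line of equal change; *Atp6v0d2*, with no count in WT-Sham, is not plotted. The 7 genes with a called interaction (red) lie below the line, at 0.45 to 2.00 in sham and -0.39 to 0.95 after tFCI, and *Ctsf* and *Cst3* are lower in miKO after tFCI.

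Further lysosomal genes outside the set, taken from lists by function, were described by the same test. The shares of all genes to read these counts against are 9.94% that rose and 8.12% that fell in miKO-Sham, and 23.5% and 15.4% in WT-tFCI, against WT-Sham. Of 37 other hydrolases and cofactors tested, 8 rose and 1 fell in miKO-Sham vs. WT-Sham and 17 rose and 3 fell in WT-tFCI vs. WT-Sham, with medians of 0.29 and 0.43. Cystatin F, *Cst7*, an inhibitor of cathepsin C, had a mean of 11.4 CPM in WT-Sham and 328 CPM in miKO-Sham, and after tFCI of 236 CPM in WT and 501 CPM in miKO, with log2FC 4.84 in miKO-Sham and 4.36 in WT-tFCI against WT-Sham and an interaction of -3.76 ± 0.35. *Arsb*, the dermatan sulfate sulfatase, was lower in miKO in both surgeries, with means of 213 CPM in WT-Sham, 284 CPM in WT-tFCI, 61.4 CPM in miKO-Sham and 91.8 CPM in miKO-tFCI (log2FC -1.79 ± 0.18 and -1.64 ± 0.18). Of 30 other membrane and sorting genes, 6 rose and 1 fell in miKO-Sham and 10 rose (33.3%) and 4 fell (13.3%) in WT-tFCI against WT-Sham, with medians of 0.15 and 0.03, so that the list lay near all genes with tFCI. *Gpnmb*, a glycoprotein of phagocytes under lysosomal load, had a mean of 0.208 CPM in WT-Sham and 6.72 CPM in miKO-Sham, and after tFCI of 80.9 CPM in WT (SD 79.6) and 349 CPM in miKO. It passed in all 4 comparisons between groups, with log2FC 2.39 ± 0.33 in miKO-tFCI vs. WT-tFCI. *Sort1*, a sorting receptor, was lower in miKO in sham and after tFCI (-0.76 and -0.79).

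Of 14 other V-ATPase subunits tested, 8 rose in miKO-Sham and 7 in WT-tFCI against WT-Sham, with medians of 0.44 and 0.47. In miKO-tFCI vs. WT-tFCI 2 of them rose (*Atp6ap2*, 0.67, and *Atp6v1g1*, 0.59), where 4.50% of all genes did. Of 19 genes that control mTORC1 and TFEB, 4 rose and 1 fell in miKO-Sham and 6 rose (31.6%) and 3 fell (15.8%) in WT-tFCI against WT-Sham, the latter near the shares over all genes. In miKO-Sham the folliculin partner *Fnip2* (1.33), the Rag GTPase *Rragc* (0.93) and folliculin, *Flcn* (0.70), rose. In WT-tFCI the related factor *Tfec* (1.90) and the Rag GTPase *Rragd* (1.32) rose and the mTORC1 subunit *Rptor* fell (-0.99).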

How the data were processed

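The 50 genes and the lists beside them were chosen with earlier results of these data known. The deposited files hold raw read counts per gene for 12 libraries (3 per group), made by the authors, per the submitters' processing notes, with FastQC 0.11.9, Trim Galore, HISAT2 2.2.1, SAMtools and HTSeq 1.99.2 on mm10/GRCm38.p6. Libraries were made with a low-input full-length kit that does not keep strand, and 30.7% to 38.5% of the reads in each file lay on genes. Rows that name no gene were left out. All columns belonged to this series.

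Gene symbols and overlaps came from GENCODE M21, which held 55141 of the 55401 identifiers. edgeR 4.0.16 (R 4.3.3) kept 16451 genes by filterByExpr, scaled the counts by TMM (factors 0.864 to 1.11), and fitted group and batch over all libraries by its quasi-likelihood test (common biological coefficient of variation 0.199). A call is a Benjamini-Hochberg adjusted p under 0.05. The study's methods used DESeq2, which was an alternative here (1.42.0), as were no batch term, RLE or upper-quartile scaling, only the groups compared, the study fold threshold, no filter, a filter of at least 10 counts in every library, batch 2 alone, a replicate block and leaving out each library. CPM are counts per 1000000 of a library's TMM-scaled total over the genes tested, and TPM are counts per exon length, scaled to sum to 1000000. The script was also run on simulated counts with known fold changes but no batch effect and no outlying library. That run cannot show how calls hold under such differences. Values in every library were given for the 5 members with the highest level per length, the 3 factors, *Atp6v0d1* and *Atp6v0d2*, the up to 5 members with the largest increase and the up to 5 with the largest decrease among those called in each comparison, and those called in the interaction; ranges and other values were added by role. Of each list outside the set, at most the 3 genes with the largest called change per comparison were named. The study's methods call the pooled libraries of a group biological replicates, and the labels do not tie libraries to mice, so p-values measure the spread between these libraries.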

Additional observations from a re-analysis of the deposited data

Results flagged for a closer look

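The difference between miKO and WT was itself tested between sham and tFCI by the interaction term of the fit over all 16451 genes (edgeR's quasi-likelihood test, Benjamini-Hochberg adjusted), and it passed with a negative sign for 7 of the 50 genes, where 2.57% of all genes did. The count was 16 with DESeq2, 4 with the replicate block, 3 without the batch term and 1 to 10 when 1 library was left out, with 1 without WT-Sham replicate 2 or 3 or WT-tFCI replicate 2 or 3, and *Ctsz* alone passed under every alternative. The interaction, as the log2FC after tFCI minus that in sham, was -1.44 for *Ctsz*, -1.17 for *Ctsd*, -1.06 for *Cd68*, -1.05 for *Ctsb*, -0.92 for *Grn*, -0.84 for *Man2b1* and -0.78 for *Naglu*. Each of them was higher in miKO-Sham than in WT-Sham, and *Ctsb* alone was also called higher in miKO-tFCI than in WT-tFCI. The microglial marker sum was 20830 to 24260 CPM in miKO-Sham and 7535 to 13740 CPM in miKO-tFCI, and the part of this in the 7 values was not tested.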

How the results depend on the processing

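The members' medians moved by less than the spread between replicates under every alternative run. For miKO-tFCI this spread was wider than the median itself, at 0.37 beside 0.12 vs. WT-tFCI and 0.38 beside 0.02 vs. miKO-Sham. A change of sign could pass there, so this does not show these medians to be stable. Over the alternatives they ran from 0.05 to 0.25 and from -0.19 to 0.13. For the interaction the spread was 0.40, and the median ran from -0.57 to -0.24. The spread was narrower for WT-tFCI and miKO-Sham vs. WT-Sham (0.10 and 0.14). No scaling alternative moved the median of all genes by over 0.1 on the log2 scale. Of the 2271 recomputed values behind the 106 calls of single genes (44 genes), 2038 kept both direction and call, 233 kept the direction but not the call, and none changed direction. Counts moved by over 1.5 times as follows. The 7 negative interactions became 16 with DESeq2, 14 without the filter, 3 without the batch term and 1 to 10 when 1 library was left out, and the 0 positive interactions became 1 without the filter. Without the batch term, 3 genes in place of 10 rose and 2 in place of 5 fell in miKO-tFCI vs. WT-tFCI. Leaving out 1 library gave 2 to 16 genes that rose and 2 to 6 that fell there, 16 to 27 that rose in miKO-Sham vs. WT-Sham, and 8 to 14 that rose in miKO-tFCI vs. miKO-Sham. With the study's fold threshold, 3 in place of 6 genes fell in WT-tFCI vs. WT-Sham. The cause of these moves was not tested.

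The labels give all groups the same replicate numbers, but deviations of same-numbered libraries from their group means correlated from -0.061 to 0.666, not always above 0.1, so the numbers were not taken as pairs. With the replicate block, 4 interactions in place of 7 passed (*Ctsb*, *Grn* and *Naglu* did not), and it moved no other count of calls by over 1.5 times. With miKO-Sham replicates 1 and 2 summed, which was chosen after seeing the data, 5 interactions passed. Depth limited *Atp6v0d2* and *Ctsk* in the sham groups, where single libraries held few or no counts.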
